A study of Mus musculus with 16 samples.

Results

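The complement genes described here are C1qa, C1qb, C1qc, C2, C3, C4b, C3ar1, C5ar1 and Serping1, 9 of the 32285 genes that the count matrices of mouse hippocampal nuclei list, and each was matched by its symbol. All 9 were detected, and they were read in nuclei with at least 500 UMIs (unique molecular identifiers, each standing for 1 captured RNA molecule), at least 300 genes and at most 5% mitochondrial UMIs. The hippocampi came from 16 female mice aged 9 months, 4 in each of 4 groups. Each mouse is labelled Ch25h+/+ or Ch25h-/- and Tau+ or Tau-, which gives the 4 groups, and the study's title links the enzyme CH25H and interferon signalling with tau pathology. Ch25h encodes cholesterol 25-hydroxylase, which makes the oxysterol 25-hydroxycholesterol, and Tau+ marks mice positive for a tau genotype that the labels do not describe further. What drives tau, the strain background and the deleted part of Ch25h are likewise not given, and the comparisons therefore rest on the labels. P-values measure the spread between libraries, 1 per mouse.

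Complement is a cascade of plasma and tissue proteins that tags cells, debris and synapses for removal. C1q, assembled from the products of C1qa, C1qb and C1qc, starts the classical pathway. C4 and C2 are cut to form the convertase that cleaves C3, the hub on which all routes meet. The fragments C3a and C5a signal through the receptors encoded by C3ar1 and C5ar1, and Serping1 encodes the C1 inhibitor, which blocks the proteases attached to C1q. In the brain, C1q is known as a product of microglia, the resident macrophages, while C4b and C3 are known as genes of reactive glia.

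The 3 C1q genes lay next to each other on the minus strand of chromosome 4 (GRCm38, GENCODE M21): C1qb at chr4:136880129-136886187, C1qc at chr4:136889804-136893065 and C1qa at chr4:136895917-136898803. C4b (chr17:34728380-34743882) and C2 (chr17:34862604-34898265) lay on chromosome 17, as did C3 at chr17:57203970-57228136. C3ar1 was at chr6:122847138-122856161, C5ar1 at chr7:16246743-16259540 and Serping1 at chr2:84765387-84775444, and all 9 genes are read from the minus strand. Upstream sequence was at hand for 5 of the 9 genes, from RefSeq (GRCm38.p6), as windows of 250 bases before each start site. The stretches below are the parts of those windows that lie outside the annotated genes, for the neighbouring pair C1qb and C1qc, for the receptor C3ar1 and for C3. They are written 5′ to 3′ on the strand of the gene, and capitals mark a match to a searched motif.
C1qb, chr4:136886201-136886450, minus strand: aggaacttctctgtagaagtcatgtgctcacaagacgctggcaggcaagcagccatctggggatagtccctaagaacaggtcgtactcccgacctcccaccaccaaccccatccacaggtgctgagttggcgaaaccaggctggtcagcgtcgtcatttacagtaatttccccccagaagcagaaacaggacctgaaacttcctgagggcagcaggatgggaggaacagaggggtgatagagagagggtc
C1qc, chr4:136893066-136893164, minus strand: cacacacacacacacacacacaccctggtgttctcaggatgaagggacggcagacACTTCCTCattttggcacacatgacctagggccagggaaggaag
C3ar1, chr6:122856162-122856407, minus strand: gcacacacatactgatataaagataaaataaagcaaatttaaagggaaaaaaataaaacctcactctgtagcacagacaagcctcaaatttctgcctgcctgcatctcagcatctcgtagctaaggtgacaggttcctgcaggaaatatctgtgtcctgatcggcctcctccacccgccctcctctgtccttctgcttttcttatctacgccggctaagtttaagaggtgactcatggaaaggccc
C3, chr17:57228137-57228386, minus strand: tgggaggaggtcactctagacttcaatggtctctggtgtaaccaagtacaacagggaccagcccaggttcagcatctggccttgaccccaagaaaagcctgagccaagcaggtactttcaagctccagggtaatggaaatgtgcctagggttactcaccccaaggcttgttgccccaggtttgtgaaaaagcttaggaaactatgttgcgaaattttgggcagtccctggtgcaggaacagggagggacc

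Both strands of the 5 windows were searched for 3 motifs: an ETS-family motif of macrophage genes (GAGGAAGT), the interferon-stimulated response element (GAAA, any 2 bases, GAAA) and the gamma-activated site (TTCNNNGAA). The only match was the ETS motif, on the opposite strand of the C1qc window, starting 195 bases before the RefSeq start site. That start site lies inside the C1qc span given above, so the window (chr4:136892915-136893164) overlaps the gene. The motif is therefore nearer to the end of that span than to the RefSeq start site. This motif occurs in 2.44% of 32851 such windows of the genome, the response element in 2.98% and the gamma-activated site in 7.02%. A match describes the letters of the window, not a site in use.

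The 16 libraries held 51270831 to 84870650 UMIs each, over all barcodes, and 136828 nuclei were kept (7601 to 10567 per library) after 11045 likely doublets were removed. Median UMIs per nucleus ranged from 3642.5 to 6253 between libraries. Clustering gave 44 clusters, of which 29 were named from marker genes and 15 were not, and unnamed nuclei made up 11.36% to 20.22% of a library. Between any pair of libraries 8 to 36 barcodes were shared, 2321 in all. Ch25h itself was rare. In all nuclei, where its ranges overlapped between the genotypes, it read at 0.147 to 0.240 CPM (UMIs of a gene scaled to 1000000 UMIs) in Ch25h+/+ Tau- libraries, 0.320 to 0.778 in Ch25h+/+ Tau+, 0.204 to 0.436 in libraries labelled Ch25h-/- Tau- and 0.294 to 0.554 in libraries labelled Ch25h-/- Tau+. This rests on 8 to 36 UMIs per library. Microglia held 20, 5, 0 and 7 Ch25h UMIs in Ch25h+/+ Tau+ and 4, 1, 1 and 1 in libraries labelled Ch25h-/- Tau+ (32 against 7 UMIs at similar totals, lower under the Ch25h-/- label in sum, with overlapping libraries), and none in Tau- libraries. Where these 3′ tags lie relative to the deleted part is not given, so these values do not check the genotype labels. The libraries also fell into 2 sets along the first principal component, replicates 1 and 2 of every group against replicates 3 and 4. This held for all 16 libraries in 6 of 9 fits and for 15 of 16 in microglia, other excitatory neurons and all nuclei. The labels name no such split, and values within each set are given beside the main ones. The sets were read from these same counts, so a call with the library set as a term of the fit is no independent support.

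The glial classes carried their defining markers. The microglial cluster had 10 of 10 microglial markers raised (among them P2ry12, Cx3cr1 and Csf1r), the astrocyte clusters 10 and 9 of 10, both oligodendrocyte clusters 9 of 9 and the precursors 9 of 9. Some neuronal clusters were named on fewer. A CA pyramidal cluster of 7336 nuclei had 4 of 10 markers raised, with a mean log2 fold of -0.25 over the list. A cluster of other excitatory neurons, with 1660 nuclei, had 3 of 10 raised and a mean of -0.85. Such names are less certain. Free RNA, taken from barcodes under 100 UMIs, gave a few counts of most genes in every class, and the share of a gene's level that it accounts for is given where it matters.

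The 9 genes differed in the cell class of their highest level. Among the named classes, the level was highest in microglia for the C1q chains and both anaphylatoxin receptors, in astrocytes and oligodendrocytes for C4b, in fibroblasts of the meninges and vessels for C2 and Serping1, and in ependymal cells for C3, which was rare throughout.

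**Figure D1:**
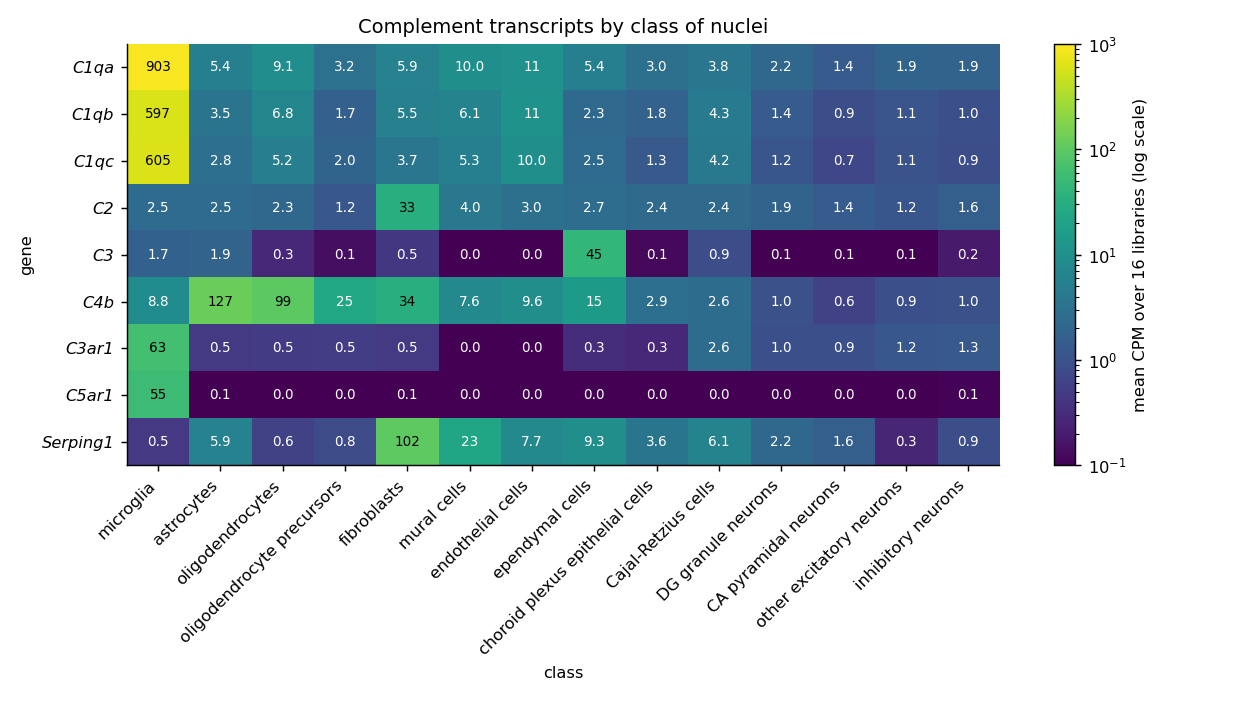
Mean CPM over 16 libraries (colour, log scale, values under 0.1 drawn as 0.1) of each of the 9 genes (rows) in the cell classes drawn (columns). The 3 C1q chains, C3ar1 and C5ar1 are highest in microglia, C4b in astrocytes and oligodendrocytes, and C2 and Serping1 in fibroblasts. The unnamed Mrc1 Cd163 cluster and the other leukocytes are not drawn.

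In microglia, C1qa averaged 903 ± 152 CPM (SD, n = 16 libraries), C1qb 597 ± 134 CPM and C1qc 605 ± 173 CPM. Microglia were 4.23% of the kept nuclei and held 75.5% of all C1qa UMIs, 75.5% of C1qb UMIs and 78.5% of C1qc UMIs. The next highest level was in an unnamed cluster led by Mrc1 and Cd163, genes of border macrophages, at 428 ± 345 CPM for C1qa, 338 ± 267 for C1qb and 280 ± 198 for C1qc. That cluster was left unnamed because 67.2% of its barcodes were called doublets, and microglia came second among the classes its markers scored for. The 421 nuclei left after doublet removal are read here. The SDs of that cluster overlap those of microglia. In oligodendrocytes the chains averaged 9.12 CPM (C1qa), 6.78 (C1qb) and 5.23 (C1qc), and free RNA accounted for 100%, 85.2% and 93.4% of these levels. Of the 5792 microglial nuclei, 24.7% had UMIs of all 3 chains, 36.4% of 2, 28.6% of 1 and 10.3% of none, at a median depth of 1448 UMIs. After each nucleus was thinned to 1000 UMIs (1047 shallower microglia left out), 54.0% of microglia had a C1qa UMI (66.2% unthinned), against 0.612% of astrocytes (1.37% unthinned, median depth 2370).

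C1q per microglial RNA did not differ with tau beyond the spread between libraries. In microglia of the Ch25h+/+ Tau- libraries, C1qa was at 1230, 654, 1173 and 1028 CPM (replicates 1 to 4, the order used throughout). With tau, Ch25h+/+ microglia held it at 910, 812, 841 and 1014 CPM. In the libraries labelled Ch25h-/- C1qa was at 744, 826, 842 and 854 CPM (Tau-) and at 862, 882, 776 and 1004 CPM (Tau+). All 4 groups overlapped, and the Ch25h+/+ Tau- group was the widest. The log2 fold change, Tau+ over Tau- across both Ch25h genotypes, was -0.07 (SE 0.10, adjusted p = 0.781, edgeR quasi-likelihood test with Benjamini-Hochberg adjustment over all genes of the class, as throughout).

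C1qb and C1qc, the other chains of C1q, gave log2 fold changes of 0.01 (SE 0.15, adjusted p = 0.991) and 0.10 (SE 0.21, adjusted p = 0.865) in microglia. C1qb spanned 470 to 798 CPM in the Ch25h+/+ Tau+ libraries and 477 to 842 CPM in the Ch25h+/+ Tau- libraries, and C1qc spanned 408 to 881 CPM and 564 to 730 CPM. In the libraries labelled Ch25h-/-, C1qb spanned 479 to 779 CPM with tau and 408 to 626 CPM without, and C1qc 448 to 862 CPM and 377 to 765 CPM. The ranges with and without tau overlapped for both chains in both genotypes. The 2 library sets gave opposite signs for C1qb (-0.28 and 0.28) and C1qc (-0.24 and 0.35), none of them past the threshold.

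Over all nuclei the chains pointed upward with tau without passing the threshold. The sum of the 3 chains was 32.8, 19.4, 25.9 and 12.9 CPM in Ch25h+/+ Tau- and 54.1, 34.4, 21.5 and 55.9 CPM in Ch25h+/+ Tau+. For the Ch25h-/- labels the sum was 21.1, 22.5, 10.0 and 24.4 CPM without tau and 29.1, 45.6, 32.6 and 48.1 CPM with tau. The tau groups did not overlap among libraries labelled Ch25h-/- and overlapped through 1 Tau+ library, replicate 3, in Ch25h+/+. How many genes are so apart within 1 genotype is not given here. Log2 fold changes were 0.84 for C1qa (SE 0.25, adjusted p = 0.0699), 0.88 for C1qb (SE 0.27, adjusted p = 0.0819) and 0.92 for C1qc (SE 0.27, adjusted p = 0.0640). C1qa passed with the library set as a term of the fit (adjusted p = 0.0450), and C1qa, C1qb and C1qc passed with DESeq2 (adjusted p = 0.0113, 0.0156 and 0.00819) and with nuclei of at least 1000 UMIs (0.0201, 0.0209 and 0.0179). C1qc also passed with doublets kept (adjusted p = 0.0455).

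The microglial share of UMIs moved in the same direction: in Ch25h+/+ mice it averaged 0.707% ± 0.194 without tau and 1.49% ± 0.557 with tau (SD, n = 4), and in mice labelled Ch25h-/- 0.782% ± 0.270 and 1.46% ± 0.287. As a share of named nuclei, microglia were 3.79%, 5.97%, 4.06% and 6.23% on average in the same order. Within microglia the sum of the 3 chains averaged 2351, 2087, 1830 and 2154 CPM, with overlapping ranges. In sums over all nuclei, more cells of a type and more RNA per cell cannot be told apart.

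**Figure D2:**
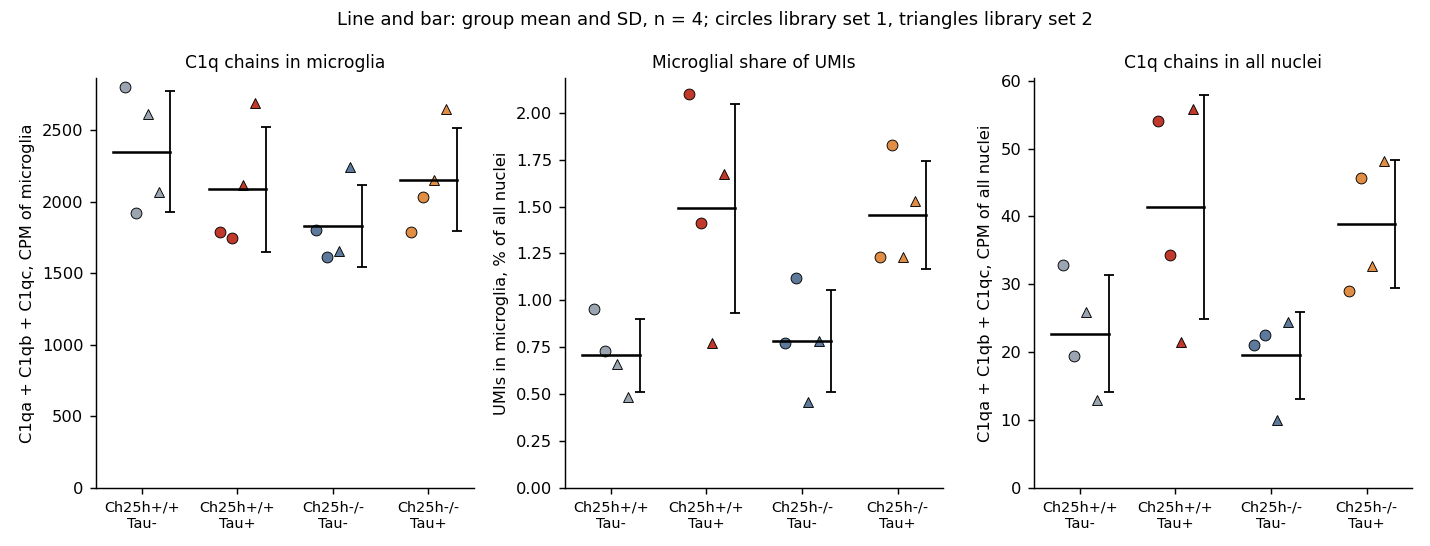
Sum of C1qa, C1qb and C1qc in CPM of microglia (left), microglial share of all UMIs in percent (middle) and the same C1q sum in CPM of all nuclei (right), 1 point per library, with group mean and SD (n = 4 per group); circles and triangles mark the 2 library sets. The left panel overlaps between all groups, while the middle and right panels are higher on average in both Tau+ groups. In Ch25h+/+ both of these panels overlap between Tau+ and Tau- through the Tau+ replicate 3 library, the lowest of its group.

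C4b, the classical-pathway component that is cut by C1s and then binds the target surface, rose with tau in astrocytes and oligodendrocytes. It was called in 2 of the 6 classes in which it passed the count filter and in all nuclei. Across all nuclei 10851 C4b UMIs were counted, 43.2% of them in astrocytes and 42.9% in oligodendrocytes. Levels were 127 ± 92.3 CPM in astrocytes, 98.8 ± 114 CPM in oligodendrocytes, 33.9 ± 28.4 CPM in fibroblasts and 25.1 ± 27.5 CPM in oligodendrocyte precursors (SD, n = 16). These SDs hold the difference between groups, and the levels of astrocytes and oligodendrocytes did not differ beyond them. Free RNA accounted for 4.77% of the astrocyte level and 5.13% of the oligodendrocyte level. The unnamed Mrc1 Cd163 cluster averaged 54.4 CPM, above fibroblasts, and free RNA accounted for 34.0% of its level. C4a, a near-identical copy of C4b, averaged 0.510 CPM in astrocytes, and reads that match both copies cannot be assigned to either.

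In astrocytes, C4b was at 103, 36.4, 43.8 and 51.0 CPM in Ch25h+/+ Tau- and at 349, 231, 101 and 221 CPM in Ch25h+/+ Tau+. In libraries labelled Ch25h-/- it was at 68.0, 60.4, 43.7 and 61.7 CPM without tau and at 165, 202, 80.8 and 219 CPM with tau. The groups labelled Ch25h-/- did not overlap, and those of Ch25h+/+ overlapped by 1 library on each side, Tau- replicate 1 and Tau+ replicate 3. The share of astrocyte genes so apart within 1 genotype is not given here. Over both genotypes C4b rose by a log2 fold change of 1.70 (SE 0.28, 3.25-fold, adjusted p = 0.00743), one of 363 genes called in astrocytes, 2.83% of 12848 tested. The difference was 1.76 in library set 1 and 1.60 in set 2, and neither set alone passed the threshold (adjusted p = 0.113 and 0.278).

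In oligodendrocytes, the myelinating cells, C4b was at 30.3, 14.3, 21.3 and 21.7 CPM in Ch25h+/+ Tau- and at 380, 175, 46.0 and 303 CPM in Ch25h+/+ Tau+. Libraries labelled Ch25h-/- read 24.0, 11.8, 9.96 and 13.4 CPM without tau and 160, 171, 57.6 and 142 CPM with tau. Every Tau+ library was above every Tau- library, as were 0.0994% of the 16094 oligodendrocyte genes with at least 20 UMIs. C4b rose by a log2 fold change of 3.21 (SE 0.43, 9.28-fold, adjusted p = 0.0138). It was one of 35 genes called in oligodendrocytes, 0.293% of 11936 tested. The values were 3.38 in library set 1 (adjusted p = 0.0858) and 3.08 in set 2 (adjusted p = 0.366).

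The 10 astrocyte markers, summed, were lower in oligodendrocytes of Tau+ mice (253 CPM on average against 309 CPM in Tau-), and 2 of 10 had a higher mean with tau. The 10 microglial markers summed to 104 CPM against 98.4 CPM there, and 8 of 10 had a higher mean with tau. In astrocytes the 10 microglial markers summed to 135 CPM with tau and 121 CPM without, and the 9 oligodendrocyte markers to 195 CPM and 150 CPM. No marker of these lists was at 0 in all libraries. The part of these shifts in the C4b difference was not tested.

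**Figure D3:**
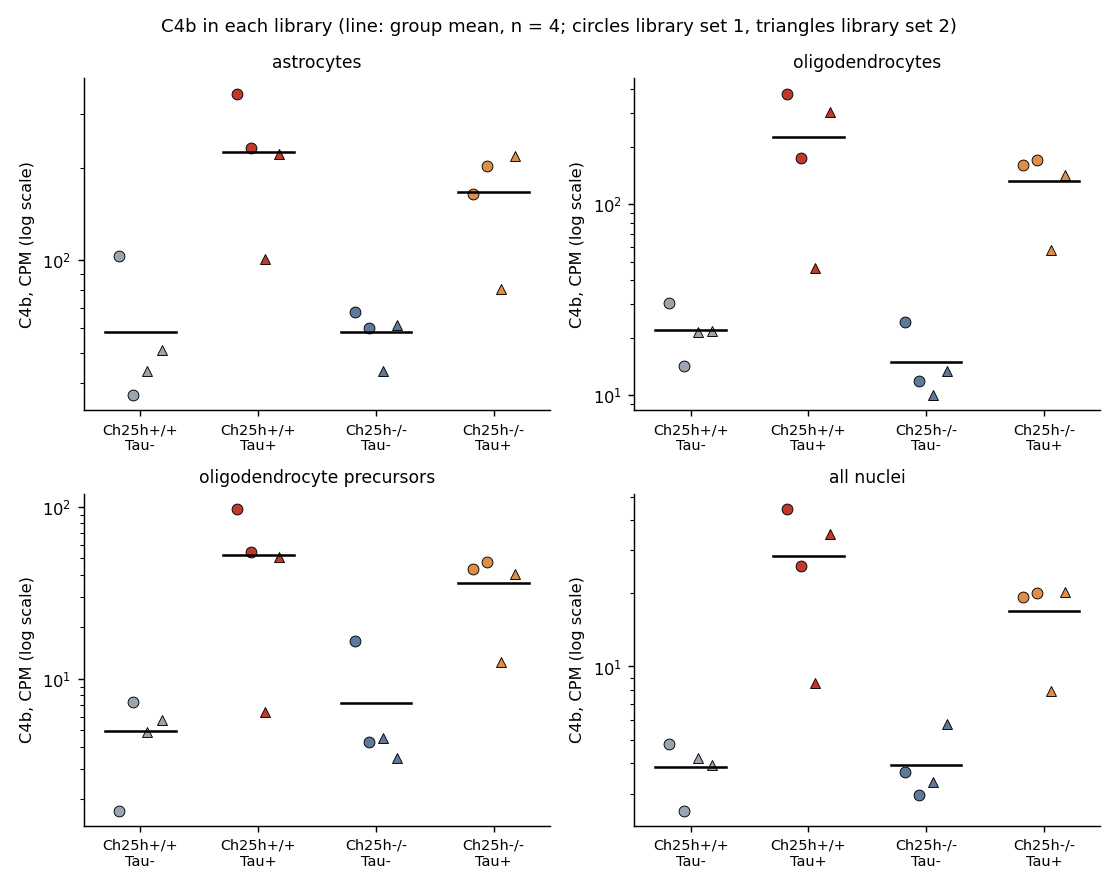
C4b in CPM (log axis) in each library by group, for the cell classes named above each panel and for all nuclei; the line is the group mean (n = 4) and circles and triangles mark the 2 library sets. Tau+ libraries stand above Tau- libraries in oligodendrocytes and in all nuclei without overlap, with the replicate 3 libraries lowest of both Tau+ groups.

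Both astrocyte clusters and both oligodendrocyte clusters showed the shift. In the larger astrocyte cluster (12573 nuclei) C4b averaged 49.3 ± 18.8 CPM without tau and 183 ± 88.2 CPM with tau (SD, n = 8). In the smaller one (1515 nuclei), led by Myoc, Aqp4 and Gfap, it averaged 168 ± 50.8 and 289 ± 73.4 CPM. The larger oligodendrocyte cluster, with 19394 nuclei, had 19.4 ± 7.71 and 178 ± 108 CPM, and the smaller, with 3434 nuclei and led by Enpp6, had 12.97 ± 6.78 and 185 ± 141 CPM. The share of astrocytes in the Gfap cluster was 8.58% without tau and 13.2% with tau.

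More nuclei carried a C4b UMI, too. Thinned to 1000 UMIs, 5.45% of astrocytes had one in Ch25h+/+ Tau-, 19.2% in Ch25h+/+ Tau+, 5.84% in Ch25h-/- Tau- and 14.8% in Ch25h-/- Tau+. The shares for oligodendrocytes were 2.12%, 16.9%, 1.12% and 10.7%. In dentate granule neurons, where free RNA accounted for the whole level, the shares were 0.0545%, 0.347%, 0.0370% and 0.174%. This left out 331 of the 14088 astrocytes and 3106 of the 22828 oligodendrocytes as too shallow.

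In oligodendrocyte precursors C4b was at 1.71, 7.31, 4.93 and 5.77 CPM in Ch25h+/+ Tau- and at 97.1, 54.7, 6.42 and 50.8 CPM in Ch25h+/+ Tau+. Those labelled Ch25h-/- read 16.5, 4.26, 4.52 and 3.45 CPM without tau and 43.2, 47.9, 12.5 and 40.7 CPM with tau. The replicate 3 Tau+ libraries fell among the Tau- values, and the log2 fold change of 2.83 (SE 0.54) had an adjusted p of 0.0637 (0.0194 with the library set as a term of the fit). C4b passed the count filter in precursors mainly through the Tau+ libraries, so these p-values are descriptions and lend no support. Free RNA accounted for 27.3% of the precursor level. In microglia C4b was at 0 to 42.7 CPM in Tau+ libraries and at 0 to 6.66 CPM in Tau- libraries (109 UMIs in all), 15.4 ± 13.9 against 2.14 ± 2.31 CPM (SD, n = 8). C4b did not pass the count filter there, and the Tau- groups hold 4 (Ch25h+/+) and 2 (Ch25h-/-) of its UMIs, so these values are a description. Free RNA accounted for 58.2% of that microglial level. The 9 oligodendrocyte markers, summed, also read higher in microglia with tau (380 CPM against 282 CPM, with a higher mean for 7 of 9), and their part in the C4b difference was not tested. In all nuclei C4b rose by 2.44 (SE 0.30, adjusted p = 0.00177; 2.85 in library set 1 and 1.99 in set 2, adjusted p = 0.0139 and 0.116), and no Tau+ library overlapped a Tau- library, as held for 0.789% of 25228 genes. Oligodendrocytes were 18.6% ± 3.70 of named nuclei in Ch25h+/+ Tau- and 22.0% ± 4.13 in Ch25h+/+ Tau+, and 12.9% ± 6.22 and 25.9% ± 2.84 under the label Ch25h-/- (SD, n = 4). The part of that shift in the value over all nuclei was not tested.

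C2, which is cleaved by C1s and joins C4b in the convertase, had its highest level in fibroblasts. It averaged 33.3 ± 17.2 CPM in fibroblasts (267 of 1649 UMIs), 17.3 ± 20.9 CPM in the unnamed Mrc1 Cd163 cluster and 2.48 ± 1.04 CPM in astrocytes. Fibroblasts numbered as few as 5 in 1 library, so they were described and not tested. Their C2 group means were 33.2 CPM in Ch25h+/+ Tau-, 44.5 in Ch25h+/+ Tau+, 29.6 in Ch25h-/- Tau- and 26.1 in Ch25h-/- Tau+, and the libraries of the groups overlapped. In all nuclei C2 had group means of 1.69, 2.44, 1.86 and 2.06 CPM, and the log2 fold change of 0.29 was not past the threshold (adjusted p = 0.273). In microglia 20 C2 UMIs were counted, 16 of them in Ch25h+/+ libraries (4.44 CPM on average, against 0.566 CPM under the label Ch25h-/-), and free RNA accounted for 23.9% of this level.

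C3, the protein on which the pathways converge, gave 231 UMIs in all nuclei of the 16 libraries. The highest class mean, 44.6 ± 56.6 CPM, was in ependymal cells, which line the ventricles. It rests on 62 UMIs in 685 nuclei. The mean was 32.7 ± 31.6 CPM without the Ch25h-/- Tau- replicate 3 library, whose single UMI gave 223 CPM, and the UMIs of all libraries summed gave 32.8 CPM, of which free RNA accounted for 1.92%. Astrocytes averaged 1.86 ± 2.02 CPM (70 UMIs) and microglia 1.72 ± 2.81 CPM (20 UMIs).

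In astrocytes, C3 was at 6.19, 3.72, 1.79 and 3.02 CPM in Ch25h+/+ Tau+ and at 3.85, 3.26, 3.90 and 3.27 CPM in Ch25h-/- Tau+. Among the 8 Tau- libraries a single one, Ch25h+/+ replicate 4, had any C3 in astrocytes (0.756 CPM). No Tau+ library overlapped a Tau- library, as held for 0.212% of 16970 astrocyte genes with at least 20 UMIs. The means were 3.62 ± 1.23 CPM with tau and 0.0945 ± 0.267 CPM without (SD, n = 8), with a two-sided exact permutation test at the smallest p its 4900 arrangements allow (p = 0.000408). C3 reached the 20 UMIs needed for that share of genes and for this test through the Tau+ libraries. Both are therefore descriptions and lend no support. In Ch25h+/+ 39 UMIs stood against 2, a ratio of 15.5 after division by the total UMIs of the astrocytes (95% exact interval of the counts 4.001 to 132). In libraries labelled Ch25h-/- 29 UMIs stood against 0. Taking 3 counts over the Tau- group as the floor gives 11.3-fold higher with tau, which is not a lower limit. The 95% exact interval used for Ch25h+/+ starts below it, at 8.585. These intervals cover counting error only.

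Astrocyte C3 fell below the count filter of the gene-wide fit, so this test covers it alone, and it reached the minimum of 20 UMIs for such a test through the Tau+ libraries, which hold 68 of its 70 UMIs. Free RNA accounted for 15.04% of the astrocyte level. It was one of 44 such tests of members under the filter, and 9 of 22 for tau and 3 of 22 for Ch25h loss had an exact p under 0.05. Over all genes under the filter with at least 20 UMIs the shares were 7.32% and 4.65% of 36000 pairs of gene and class. After C3, the lowest of these p-values belonged to C1qb in inhibitory neurons, at 1.46 ± 0.549 CPM with tau and 0.447 ± 0.349 CPM without (SD, n = 8; exact permutation test, p = 0.00204), a level that free RNA accounted for in full. The smaller astrocyte cluster held C3 at 14.7 ± 11.6 CPM with tau and 1.34 ± 3.79 CPM without, and the larger at 2.13 ± 1.398 CPM and 0. Over all nuclei C3 rose with tau by a log2 fold change of 1.95 (SE 0.28, adjusted p = 0.00294), from 0.169 to 0.533 CPM in Ch25h+/+ and from 0.0696 to 0.371 CPM in libraries labelled Ch25h-/-. Both Tau- means lie under the level that the count filter asks for, and both Tau+ means above it. C3 thus passed the filter mainly through the Tau+ libraries, and its calls in all nuclei are descriptions that lend no support. The Tau+ and Tau- libraries did not overlap, as held for 0.789% of 25228 genes with at least 20 UMIs. Ependymal cells, with 62 of the 231 C3 UMIs, were 0.490% of named nuclei without and 0.995% with tau in Ch25h+/+ and 0.332% and 0.506% under the label Ch25h-/-, and the part of this in the C3 value was not tested. Library sets 1 and 2 gave 2.16 (adjusted p = 0.0511) and 1.69 (adjusted p = 0.136).

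C3ar1, the receptor for C3a, was the 1 gene that rose with tau among the 5 members tested in microglia. Its level was 63.4 ± 26.8 CPM in microglia (SD, n = 16; 652 UMIs, 42.8% of its total) and 47.9 ± 31.1 CPM in the unnamed Mrc1 Cd163 cluster, 2 levels that overlap. In Ch25h+/+ Tau- microglia it was at 40.9, 42.8, 40.0 and 41.4 CPM, and in Ch25h+/+ Tau+ at 117, 89.1, 65.1 and 97.8 CPM. Libraries labelled Ch25h-/- read 65.9, 21.8, 49.6 and 45.7 CPM without tau and 70.3, 96.9, 46.5 and 83.5 CPM with tau. The Ch25h+/+ groups were apart, with the Tau- libraries within 3 CPM of each other, and the groups labelled Ch25h-/- overlapped through the Tau+ replicate 3 library. For microglial genes the share so apart within 1 genotype is not given here.

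The log2 fold change of C3ar1 over both genotypes was 0.95 (SE 0.19, 1.93-fold, adjusted p = 0.0020). In microglia 8.88% of 8413 genes were called in this contrast. Set 1 of the libraries gave 1.14 (adjusted p = 0.00318) and set 2 gave 0.73 (adjusted p = 0.294). In all nuclei C3ar1 rose by 0.83 (SE 0.17, adjusted p = 0.0127), beside the larger microglial share given above; the 2 sets gave 0.89 and 0.77 (adjusted p = 0.0890 and 0.254). The summed markers of border macrophages within microglia were 176 CPM with tau and 262 CPM without, and 4 of 8 had a higher mean with tau. The share of microglia with a C3ar1 UMI after thinning was 3.95% without and 8.42% with tau in Ch25h+/+ mice and 4.40% and 6.26% in mice labelled Ch25h-/-, against 0.0495% to 0.137% in dentate granule neurons.

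C5ar1, the receptor for C5a, was read at 88.8 ± 62.0 CPM in the Mrc1 Cd163 cluster and at 54.9 ± 17.1 CPM in microglia, whose 511 UMIs were 75.8% of its total. Microglial C5ar1 was at 49.9, 42.8, 63.3 and 62.2 CPM in Ch25h+/+ Tau- and at 69.9, 63.5, 53.8 and 60.8 CPM in Ch25h+/+ Tau+. Under the label Ch25h-/- it was at 65.9, 16.4, 19.1 and 60.1 CPM without tau and at 56.5, 46.4, 74.7 and 73.9 CPM with tau. All groups overlapped, and the log2 fold change of 0.39 (SE 0.21, adjusted p = 0.304) did not pass the threshold. The value over all nuclei was 1.05 (SE 0.32, adjusted p = 0.0720), and it passed with DESeq2, with nuclei of at least 1000 UMIs and with doublets kept (adjusted p = 0.0196, 0.0281 and 0.0394).

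Serping1, the inhibitor of the C1 proteases, was highest in fibroblasts at 102 ± 44.2 CPM (802 of 1999 UMIs, 40.1%). Mural cells followed at 23.4 ± 26.3 CPM, ependymal cells at 9.31 ± 9.88 CPM and endothelial cells at 7.71 ± 24.1 CPM, on 9 to 25 UMIs each, so their order is not settled at this depth. Fibroblast group means were 92.4 CPM in Ch25h+/+ Tau-, 118 in Ch25h+/+ Tau+, 90.1 in Ch25h-/- Tau- and 110 in Ch25h-/- Tau+, with overlapping libraries.

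Serping1 was lower in astrocytes, at 5.89 ± 5.01 CPM, and rose there with tau. In Ch25h+/+ Tau- astrocytes it was at 2.31, 1.399, 2.30 and 0.756 CPM, and in Ch25h+/+ Tau+ at 14.7, 7.45, 4.93 and 10.6 CPM. In libraries labelled Ch25h-/- it was at 2.86, 1.63, 2.63 and 1.31 CPM without tau and at 10.8, 8.69, 5.57 and 16.4 CPM with tau. No Tau+ library overlapped a Tau- library in either genotype, as held for 0.212% of 16970 astrocyte genes with at least 20 UMIs. The log2 fold change was 2.36 (SE 0.31, 5.15-fold, adjusted p = 0.000535). The Tau- libraries held 2 to 8 Serping1 UMIs each in astrocytes and the Tau+ libraries 10 to 38. Serping1 thus passed the count filter there through the Tau+ libraries, and its Tau- levels rest on few counts. Its test in astrocytes is therefore a description and lends no support, here and wherever the call is counted below. Set 1 of the libraries gave 2.32 (adjusted p = 0.0012) and set 2 gave 2.37 (adjusted p = 0.0854).

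Free RNA accounted for 15.5% of the astrocyte level of Serping1. The 8 fibroblast markers summed to 201 CPM in astrocytes with tau and to 237 CPM without, and 4 of 8 had a higher mean with tau. In all nuclei, where fibroblasts hold much of the signal, Serping1 gave 0.43 (SE 0.31, adjusted p = 0.528). The value was 1.02 in Ch25h+/+ (SE 0.44, adjusted p = 0.301; 1.61 ± 1.22 CPM without and 3.46 ± 1.10 CPM with tau, SD, n = 4) and -0.17 under the label Ch25h-/- (SE 0.44, adjusted p = 0.945; 2.52 ± 1.24 and 2.25 ± 0.349 CPM), and their difference did not pass the threshold (adjusted p = 0.798). Fibroblasts were 1.29% of named nuclei without and 3.54% with tau in Ch25h+/+ and 3.58% and 1.90% under the label Ch25h-/-, and the part of this in the Serping1 values was not tested.

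**Figure D4:**
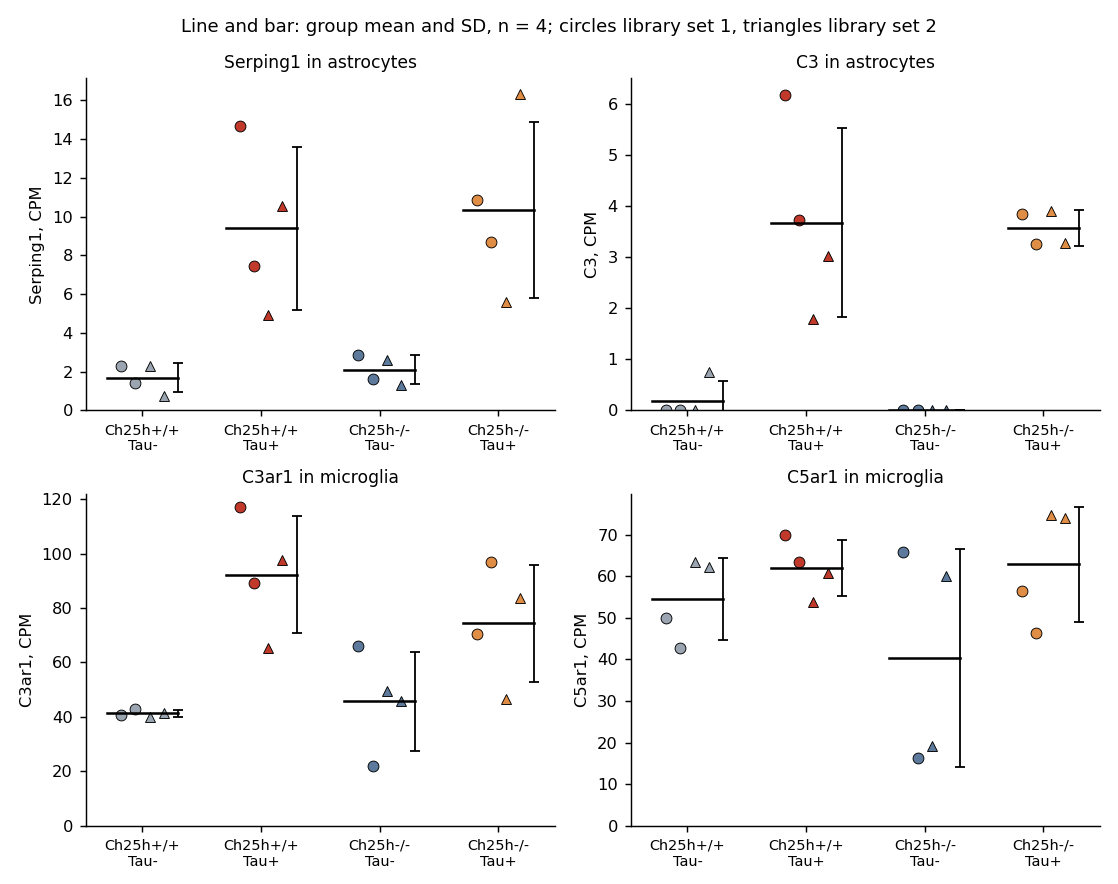
Serping1 and C3 in astrocytes and C3ar1 and C5ar1 in microglia, in CPM (linear axis from 0), 1 point per library with group mean and SD (n = 4 per group); circles and triangles mark the 2 library sets. Serping1 and C3 do not overlap between Tau+ and Tau- libraries, C3ar1 is apart in Ch25h+/+ only, and C5ar1 overlaps in all groups.

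Counted over classes, the members had 32 pairs of gene and class that passed the count filter, covering 8 of the 9 genes in 8 classes. With tau over both genotypes 4 pairs rose and none fell: C4b and Serping1 in astrocytes, C4b in oligodendrocytes and C3ar1 in microglia. Over all genes and the same classes 1.15% of 103523 pairs were called, against 4 of 32 here. By class this share ran from 0.0267% in other excitatory neurons to 8.88% in microglia. The 9 genes were chosen with earlier results of these data known. Their calls beside such shares, here and elsewhere, therefore test nothing about the set. In all nuclei 3 of 9 genes rose (C4b, C3 and C3ar1) and none fell, where 4.63% of 21392 genes were called. The median log2 fold change of the members was 1.32 in astrocytes (4 tested), 0.70 in oligodendrocytes (4 tested), 0.10 in microglia (5 tested) and 0.88 in all nuclei (9 tested), and the median of all genes was within 0.01 of 0 in each. Members that passed the filter are not all members, and these medians are descriptions. In oligodendrocytes the C1q chains were among the 4 tested, and free RNA accounted for 85.2% to 100% of their levels. In astrocytes it accounted for 100% of the C1qa level, and Serping1 passed the filter there through the Tau+ libraries. The calls of Serping1 in astrocytes and C3 in all nuclei counted here are descriptions and lend no support.

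Within each Ch25h genotype, with 4 libraries a side, the called genes kept their direction, with 2 of 32 pairs past the threshold in Ch25h+/+ (0.256% of all pairs) and none in libraries labelled Ch25h-/- (0.157% of all pairs). An unadjusted p under 0.05 came up there for 12 of 32 pairs, against 7.88% of all pairs. The limits given above for such shares, and for the calls of Serping1 in astrocytes and C3 in all nuclei, hold here too. In Ch25h+/+, Serping1 in astrocytes (2.46, SE 0.45, adjusted p = 0.0156; 0.521% of astrocyte genes called), C3ar1 in microglia (1.16, SE 0.27, adjusted p = 0.0256; 2.15% called) and C4b in all nuclei (2.79, SE 0.43, adjusted p = 0.0276; 0.126% called) passed. C4b had 1.92 in astrocytes (SE 0.40, adjusted p = 0.0523) and 3.35 in oligodendrocytes (SE 0.59, adjusted p = 0.195). With the library set as a term of the fit, C4b in astrocytes passed as well (adjusted p = 0.0338). The Serping1 call was lost without Tau+ replicate 1 or Tau- replicate 4 (adjusted p = 0.0848 and 0.107). The C3ar1 call was lost without any 1 library of these groups other than Tau+ replicate 3 (up to 0.108) and with nuclei of at least 1000 UMIs (0.111). The C4b call in all nuclei was lost without any 1 library of these groups other than the replicate 3 libraries (up to 0.107) and in a fit of the 2 groups alone (0.154). In libraries labelled Ch25h-/-, C3 (2.35, SE 0.42, adjusted p = 0.0257) and C4b (2.08, SE 0.42, adjusted p = 0.0394) passed in all nuclei, where 0.762% of genes were called. The C4b call was lost without any 1 of 11 of the 16 libraries (adjusted p up to 0.139), among them all of these groups but Tau+ replicate 3, and the C3 call without Tau+ replicate 2 or 4 or Tau- replicate 2, 3 or 4 (up to 0.0863). Both were lost in a fit of the 2 groups alone (adjusted p = 0.0679 and 0.0519). There, C4b had 1.49 in astrocytes (SE 0.40, adjusted p = 0.208) and 3.08 in oligodendrocytes (SE 0.64, adjusted p = 0.266), Serping1 had 2.27 in astrocytes (SE 0.42, adjusted p = 0.0779) and C3ar1 had 0.74 in microglia (SE 0.26, adjusted p = 0.165). Of these, Serping1 in astrocytes passed with the library set as a term (adjusted p = 0.0333).

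The tau effects of the 2 genotypes were compared directly by their difference. None of the 32 pairs or the 9 genes in all nuclei passed, and none had an unadjusted p under 0.05, where 4.17% of all pairs and 6.12% of genes in all nuclei had one; over all genes 0% of pairs and 0% of genes in all nuclei were called. The difference, labelled Ch25h-/- minus Ch25h+/+, was -0.43 (SE 0.56) for C4b in astrocytes, -0.28 (SE 0.88) for C4b in oligodendrocytes, -0.20 (SE 0.64) for Serping1 in astrocytes and -0.42 (SE 0.39) for C3ar1 in microglia, each with an adjusted p above 0.99.

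**Figure D5:**
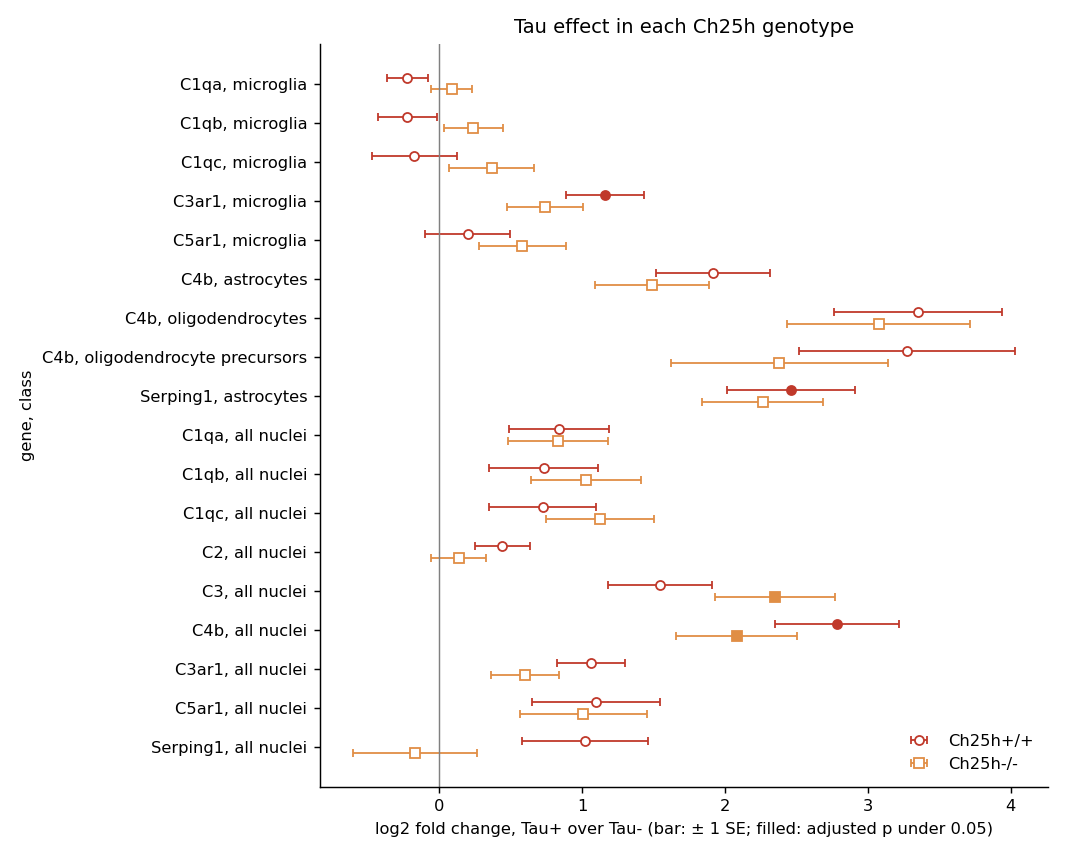
Log2 fold change of Tau+ over Tau- (x axis, bars ± 1 SE, from the edgeR fit) in Ch25h+/+ (circles) and in libraries labelled Ch25h-/- (squares), for pairs of gene and class; filled symbols have an adjusted p under 0.05. C1q chains in microglia lie around 0 in both genotypes, C4b and Serping1 in glia lie above 1 in both, and the bars of the 2 genotypes overlap for C4b in astrocytes and oligodendrocytes.

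Loss of Ch25h changed none of the 9 genes past the threshold, over both tau states, in Tau+ or in Tau-, by edgeR or by DESeq2. Among the 32 pairs and the 9 genes in all nuclei, an unadjusted edgeR p under 0.05 came up for 1 and 1 over both tau states, for 0 and 0 in Tau+ and for 1 and 1 in Tau-. Over all genes such a p came up for 2.84% of pairs and 3.36% of genes in all nuclei over both tau states, for 3.22% and 6.08% in Tau+ and for 3.69% and 3.45% in Tau-. Over all genes the called shares of pairs were 0.0106%, 0.0058% and 0.0029% in these 3 comparisons, and of genes in all nuclei 0.0327%, 0.014% and 0.00467%. C4b in Tau+ mice was lower on average in libraries labelled Ch25h-/-, at 133 ± 51.4 against 226 ± 147 CPM in oligodendrocytes (SD, n = 4; log2 fold change -0.74, SE 0.49, 95% interval -1.70 to 0.23) and at 167 ± 61.4 against 226 ± 101 CPM in astrocytes (-0.41, SE 0.37, interval -1.14 to 0.32). These groups overlapped in both classes. Over both tau states C3ar1 in microglia differed by -0.11 (interval -0.49 to 0.27) and C1qa in microglia by -0.17 (interval -0.37 to 0.03). C3 in all nuclei had the lowest unadjusted p of this comparison (0.0088; -0.85, SE 0.28, adjusted p above 0.99).

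Other genes of the complement system were read from a list of 50, of which 32 passed the filter in at least 1 class and 44 in all nuclei. This list, too, was chosen with earlier results of these data known. With tau, 3 of 135 pairs of gene and class rose and 2 fell, beside 1.15% of all pairs called, and in all nuclei 3 of 44 genes rose, beside 4.63% of all genes called. Itgax, the alpha chain of complement receptor CR4, rose in microglia by 4.15 (SE 0.74, adjusted p = 0.00311), from 3.78 to 53.6 CPM in Ch25h+/+ and from 1.52 to 43.1 CPM in libraries labelled Ch25h-/-. Both Tau- means lie under the level that the count filter asks for. Itgax thus passed the filter in microglia through the Tau+ libraries, and this call is a description that lends no support. Itgam, the alpha chain of CR3, fell by 0.34 on the log2 scale (SE 0.09, adjusted p = 0.0175), and Csmd3, which carries complement-control domains, fell by 0.70 (SE 0.17, adjusted p = 0.0197). Masp1, a protease of the lectin pathway, rose in oligodendrocytes (2.31, SE 0.43, adjusted p = 0.0398) and in microglia (0.98, SE 0.27, adjusted p = 0.0221). The share from free RNA was 1.395% for Csmd3 in microglia, and 3.90% in microglia and 5.35% in oligodendrocytes for Masp1. Within microglia the 10 astrocyte markers summed to 394 CPM with tau and 502 CPM without, and 2 of 10 had a higher mean with tau, beside the higher oligodendrocyte markers given above; their part in these differences was not tested. In all nuclei Itgax (4.38, adjusted p = 0.00385), Itgb2, the shared beta chain of both receptors (1.10, adjusted p = 0.0127), and Masp1 (0.41, adjusted p = 0.0207) rose.

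Clu, a chaperone of the list that blocks the membrane attack complex, averaged 794 ± 236 CPM in astrocytes and was not called. In the same fits the glial activation gene Gfap rose in astrocytes by 1.61 (SE 0.24, adjusted p = 0.00419) and Apoe in microglia by 2.18 (SE 0.47, adjusted p = 0.0119). P2ry12, a gene of resting microglia, fell by 0.42 (SE 0.12, adjusted p = 0.0314).

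Likeness of pattern was measured as Pearson's correlation of log2 (mean CPM + 1) over the 15 named classes, which share libraries and depth, against 18203 genes. C1qa was most like C1qc (r = 0.99), Ly86 and Pld4, and C1qb most like Fcrls (r = 0.99) and C1qc, all read mainly in microglia. C4b was most like Cdh19 (r = 0.91), Kcnj10 and Apoe, and Serping1 most like Mxra8 (r = 0.92), Cyp1b1 and Col1a2. C3ar1 was most like Hk3 (r = 0.98), C5ar1 like Arl11, C3 like Dpep2 and C2 like 4930594M22Rik. For genes read mainly in 1 class such a value rests on that class.

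Over the 16 libraries, as deviations from the group means within 1 class, C4b in astrocytes was most like Samhd1 (r = 0.93) and C4b in oligodendrocytes most like Gfap (r = 0.90). Free RNA accounted for 71.9% of the Gfap level in oligodendrocytes, which averaged 7.56 ± 4.72 CPM. Serping1 in astrocytes was most like Bcl2 (r = 0.93) and C3ar1 in microglia most like Dop1b (r = 0.88) and Csf1. These are the highest of 8017 to 12173 genes compared in each class and are given as descriptions.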

How the data were processed

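Nuclear RNA of 16 hippocampi was sequenced with a 10x 3′ kit. The deposited matrices hold UMI counts per gene and barcode, aligned to mm10 with Cell Ranger, per the submitters' processing notes (3.1.0) and the file headers (4); whether introns were counted is not given in the sources used here. The 9 genes and the lists were chosen with earlier results of these data known. Doublet scores removed 0.8% of nuclei per 1000. Clustering (scanpy 1.11.5, 50 components of 3000 variable genes, 20 neighbours, resolution 1) left out the complement genes; some naming rules were added after the clusters were seen. Counts summed per library and class were tested with edgeR 4.0.16 (R 4.3.3; TMM, filterByExpr, 4 groups in 1 fit, for classes of 20 or more nuclei in each library), with adjusted p under 0.05 as threshold. DESeq2 1.42.0 was an alternative. Members under the filter with at least 20 UMIs had exact permutation tests within genotype or tau state (scipy 1.17.1). All members are named, and of the other genes those called, at most 12. Tested on simulated data (tau contrast, 200 of 12848 astrocyte genes changed), the fit recovered 87% of 2-fold and 100% of 4-fold changes, with 7 false calls. Real genes can fare worse: C4b in oligodendrocyte precursors changed more than 4-fold and was not called. An uncalled member is therefore not shown to have changed less than these folds. Library totals limit the precision of rare genes such as C3. Results for some genes of the naming rule are not reported here.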

Additional observations from a re-analysis of the deposited data

Results flagged for a closer look

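In 9 of 96 groups of 4 libraries, 1 library stood far from the other 3 (its gap to the nearest, as a share of the range, above Dixon's 95% critical value). Chance alone gives about 1 in 20 such groups when values are spread normally, which counts near 0 are not: a group with 3 libraries at 0 and 1 above, as for C3 in astrocytes and C4b in fibroblasts, always passes.

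In astrocytes, C3 read 0.756 CPM in Ch25h+/+ Tau- replicate 4 and 0 in the other libraries of its group. C4b in oligodendrocyte precursors read 16.5 CPM in Ch25h-/- Tau- replicate 1, against 3.45 to 4.52 CPM in the others. C4b in fibroblasts read 56.3 CPM in Ch25h+/+ Tau- replicate 3 and 0 in the others, which had few fibroblasts. C2 in fibroblasts read 0 in Ch25h+/+ Tau- replicate 4, against 40.2 to 46.6 CPM. Serping1 in fibroblasts read 144 CPM in Ch25h-/- Tau+ replicate 4, against 95.8 to 103 CPM. C3 in ependymal cells read 223 CPM in Ch25h-/- Tau- replicate 3, on 1 UMI, against 0 to 11.2 CPM.

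Over all nuclei, C4b read 7.91 CPM in Ch25h-/- Tau+ replicate 3, against 19.3 to 20.3 CPM. C3ar1 read 0.881 CPM in Ch25h+/+ Tau- replicate 4, against 1.27 to 1.32 CPM. Serping1 read 3.42 CPM in Ch25h+/+ Tau- replicate 3, against 0.881 to 1.21 CPM.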

How the results depend on the processing

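No paired analysis was possible because the replicate numbers were given in accession order and pair no mice. The 7 calls with tau over both genotypes (C4b and Serping1 in astrocytes, C4b in oligodendrocytes, C3ar1 in microglia, and C4b, C3 and C3ar1 in all nuclei) each stayed past the threshold without any 1 of the 16 libraries. Serping1 in astrocytes and C3 in all nuclei are descriptions, as given above, in every run. All 7 were also among the 16 member calls with DESeq2, the 11 with nuclei of at least 1000 UMIs, the 10 with doublets kept, the 10 with the library set as a block and the 9 without the filter. In set 1 alone 6 were called, 3 of the 7 (Serping1 in astrocytes, C3ar1 in microglia and C4b in all nuclei) and 3 others, and in set 2 alone 0 (2 libraries a group). Leaving out 1 library gave 7 to 15, the highest without Ch25h+/+ Tau+ replicate 3.

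In Ch25h+/+ the 3 calls became 8 with DESeq2, 5 with the block, 4 in set 1 alone (2 of the 3, C4b in all nuclei lost, adjusted p = 0.0853), 2 with nuclei of at least 1000 UMIs, 2 in a fit of the 2 groups alone, 0 in set 2 alone and 0 to 8 without 1 library. In libraries labelled Ch25h-/- the 2 calls became 6 with DESeq2, 5 without the filter (C4b in all nuclei lost, adjusted p = 0.0670), 3 with the block, 1 with doublets kept (C3 in all nuclei lost, 0.0595), 1 in set 1 alone, 0 in set 2 alone, 0 in a fit of the 2 groups alone and 0 to 4 without 1 library. Ch25h loss and the difference between tau effects gave 0 in each alternative run.

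The members under the filter had 2 of 44 tests past an adjusted p of 0.05 over these tests, which cover the members alone and lend no support; this became 6 with doublets kept and 1 to 8 without 1 library, both added after seeing the data. Signs turned for C1qb in microglia (0.01 with tau; -0.013 with the block, -0.28 in set 1, -0.086 to 0.077 without 1 library), C1qc in microglia (-0.24 in set 1, -0.021 to 0.25 without 1 library) and the difference between tau effects of C4b in oligodendrocytes (0.040 in set 2, -0.61 to 0.14 without 1 library). Unthinned shares were 66.2% for C1qa in microglia, 8.89% for C3ar1 in microglia and 22.1% for C4b in astrocytes. Depth limits C3 and the classes with few nuclei.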
